A study of Mus musculus with 6 samples.

Results

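The genes described here were grouped by their links to the red cell, 49 members among 21887 protein-coding genes of the annotation. The groups are 17 transcription factors, 10 globin and haem genes, 5 iron genes and 17 genes of the red cell membrane and its skeleton. Not every member is confined to red cells, and Sptbn1 works outside them. The members were named one by one and all 49 were found by symbol. A member was counted as having a peak when a deposited region of methylated DNA touched its body or lay within 10 kb of it (mm10, RefSeq genes). The members were named with results of these same data in view, so a count of members with a peak is a description and not a measure of how much methylated DNA erythroid genes carry.

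The libraries came from I/11 cells, a mouse erythroblast line made from p53-deficient fetal liver at day E12.5, and all of them therefore lack p53. Cells took up lentivirus with a small hairpin RNA (#133 or #14) against Plcg1, which encodes phospholipase C gamma 1, a signalling enzyme activated below the Epo receptor, or with a scrambled hairpin, and were kept in 1 ug/ml puromycin for 48 h. The libraries set against each other are hairpin 133 and hairpin 14 at 24 h of differentiation in 10 U/ml erythropoietin (Epo), harvested 96 h after infection, and the same hairpins at 0 h, harvested 72 h after infection from expansion medium with 1 U/ml Epo, stem cell factor and dexamethasone. The differentiation medium lacked both of these and held transferrin, so time and medium cannot be told apart. Each is 1 library of 1 line, with 2960 and 2666 peaks at 24 h and 3900 and 3437 peaks at 0 h for hairpins 133 and 14, and no peak list of the scrambled hairpin was used. The study asked how DNA methylation changes when Plcg1 is knocked down during Epo-induced maturation. Methylated DNA says nothing of transcript levels, so neither the knockdown nor the erythroid identity of the line could be checked here.

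Erythroid genes are switched on by a small set of DNA-binding factors (GATA, TAL1 and KLF proteins with their cofactors) that act at promoters, introns and distant enhancers. Haem is made by a chain of enzymes split between mitochondrion and cytosol and fed by transferrin-borne iron, and the finished cell is held in shape by a spectrin and actin skeleton tied to band 3 and glycophorin complexes by ankyrin, protein 4.1 and adducin. Methylated CpG at a start site often goes with a silent promoter, while methylated CpG inside a gene body is common in transcribed genes. The assay, methyl-CpG immunoprecipitation, pulls down sonicated DNA with an MBD2-Fc fusion protein and favours fragments that hold many methylated CpGs, so a peak needs both CpGs and methyl groups. The sources used here do not say which way a listed region differs from the scrambled hairpin, and no direction is attached to any peak below.

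Of the 49 members, 21 had a peak in at least 1 list and 28 had none in any list. In the 24 h lists 10 members had a peak with hairpin 133 and 6 with hairpin 14, and in the 0 h lists 15 had one with hairpin 133 and 7 with hairpin 14. Counted the same way, the share of all protein-coding genes was 10.5% (hairpin 133) and 9.72% (hairpin 14) in the 24 h lists. In the 0 h lists it was 12.7% (hairpin 133) and 11.0% (hairpin 14). At least 1 list held a peak for 42.9% of members (21 of 49) and for 26.0% of all protein-coding genes. Dmtn was in 4 lists, Sox6, Slc14a1 and Sptbn1 were in 3, 8 members were in 2 and 9 were in 1. With 1 library in each group, no difference between lists or gene groups could be tested against replicate spread.

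**Figure D1:**
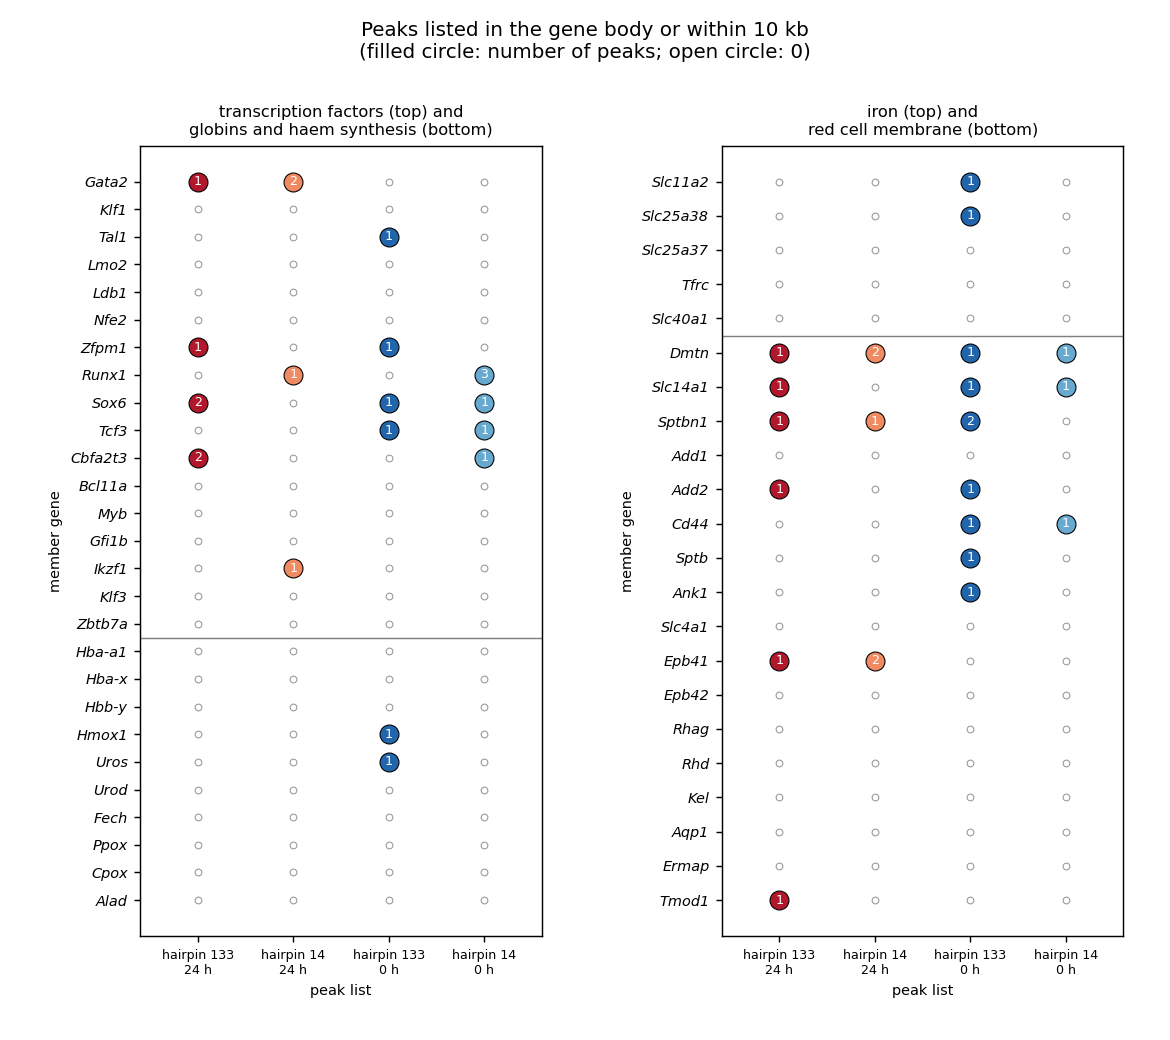
Number of peaks at each of the 49 members (rows, by group) in the 4 lists (columns, 24 h before 0 h). Filled circles carry the number of peaks in the body or within 10 kb and open circles stand for 0. Dmtn is the single row filled in all 4 columns, and the haem and iron genes are filled only in the column of hairpin 133 at 0 h.

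A second set of 83 genes of the same pathways, such as the adult globins, ferritins, glycophorins and the STAT5 factors, gave lower shares than the members. The lists of 24 h held a peak for 6 (hairpin 133) and 7 (hairpin 14) of them, and the lists of 0 h for 6 (hairpin 133) and 5 (hairpin 14), or 6.02% to 8.43% of the 83. In at least 1 list, 18 of the 83 (21.7%) had a peak. The members were named with these data in view and the 83 are further genes beside them. Their lower shares are thus a description, and no difference between the sets is read from them. Both sets together, 132 genes, had a peak in 12.1% and 9.85% of cases at 24 h and in 15.9% and 9.09% at 0 h (hairpins 133 and 14), against 10.5%, 9.72%, 12.7% and 11.0% of all protein-coding genes. The joint set holds the 49 members, so no excess over the background is read from it.

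**Figure D2:**
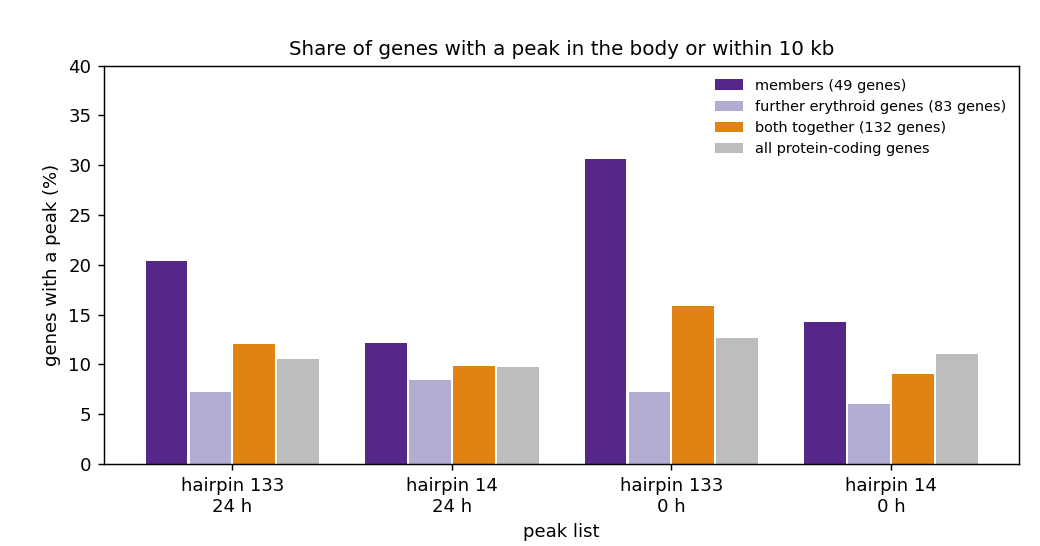
Share of genes with a peak (y axis, %) in each list (x axis) for the 49 members, the 83 further erythroid genes, both together and all protein-coding genes. The members reach 30.6% with hairpin 133 at 0 h, while the joint set of 132 genes stays between 9.09% and 15.9%.

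Gene length differed between the members with and without a peak, and its part in the counts was not tested. The 21 members with a peak had a median body of 74.2 kb (range 6.98 to 569.9 kb) and the 28 without had one of 16.8 kb (0.82 to 97 kb). Over all protein-coding genes the median was 17.2 kb. Per megabase of body and flanks, members held 3.26 and 2.44 peaks at 24 h and 4.34 and 2.44 at 0 h (hairpins 133 and 14), the 83 further genes held 1.41, 2.12, 1.41 and 1.18, and all protein-coding genes held 1.70, 1.59, 2.16 and 1.87. Members took 12 peaks (0.405% of the list, exact binomial 95% interval 0.210 to 0.707%) and 9 peaks (0.338%, 0.154 to 0.640%) at 24 h, and 16 (0.410%, 0.235 to 0.665%) and 9 (0.262%, 0.120 to 0.497%) at 0 h. These intervals overlap for all 4 lists and cover counting error only. Since the members were named with these data in view, neither the intervals nor their overlap tests a difference between lists. For the same reason no difference between members and other genes is read from the peaks per megabase.

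The peaks at members formed 35 regions, counting overlapping peaks as 1 region. Of these, 27 came from 1 list (77.1%), 6 from 2, 1 from 3 and 1 from 4. Of all 10085 regions of the series 79.2% came from 1 list and 2.36% from all 4. At members, 15 regions were listed at 24 h alone (42.9%), 18 at 0 h alone (51.4%) and 2 at both times (5.71%). Over all regions 39.2% were listed at 24 h alone, 51.6% at 0 h alone and 9.17% at both times. By hairpin, 18 were listed with hairpin 133 alone (51.4%), 9 with hairpin 14 alone (25.7%) and 8 with both (22.9%). Over all regions 44.2% were listed with hairpin 133 alone, 37% with hairpin 14 alone and 18.7% with both.

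Among the transcription factors, 8 of 17 had a peak (47.1%), where 26.0% of all protein-coding genes had one. In the 24 h lists 4 factors had a peak with hairpin 133 and 3 with hairpin 14, and in the 0 h lists 4 with each hairpin. The shares of all protein-coding genes were 10.5% and 9.72% at 24 h and 12.7% and 11.0% at 0 h (hairpins 133 and 14). The members were named with these data in view, so no excess is read from these counts. Gata2, which maintains blood progenitors and gives way to GATA1 as erythroid cells mature, had peaks at 24 h only: 1 with hairpin 133 and 2 with hairpin 14, against 0 and 0 at 0 h. The region of both hairpins, chr6:88200321-88200471, had the same start and end in both lists and lay 1.73 kb past the inner of the gene's annotated starts. The other, chr6:88194450-88194600, was listed with hairpin 14 and lay 0.63 kb past the outer start, where a long noncoding RNA gene, Gm38708, also runs. The nearest peaks to the gene at 0 h were 378 kb and 471 kb away (hairpins 133 and 14).

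Sox6, which silences embryonic globin, had 2 peaks with hairpin 133 and 0 with hairpin 14 at 24 h, against 1 with each hairpin at 0 h. The 0 h region, chr7:116034043-116034193, was identical with both hairpins and lay 3.07 kb from the nearest Sox6 start. The 24 h peaks lay elsewhere in the 569.9 kb body, 209.6 kb or more from it, at chr7:115824271-115824421, which is 0.36 kb past an inner start, and at chr7:115804249-115804399, which is 2.72 kb from another. Tcf3, the E protein partner of TAL1, had 1 peak with each hairpin at 0 h and 0 with each at 24 h. Its peaks lay 4 bp apart in start and formed 1 region, chr10:80426883-80427037, 6.67 kb past the gene's start.

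Runx1, a factor of definitive blood stem cells, was seen with hairpin 14 alone. It had 1 peak at 24 h, 3234 bp past the 3′ end of the body, and 3 peaks at 0 h inside the 224.6 kb body. None of the 4 overlapped another, and the one nearest to a Runx1 start was 21.4 kb from it. Cbfa2t3, the corepressor ETO2 of TAL1 complexes, had 2 peaks with hairpin 133 and 0 with hairpin 14 at 24 h, against 0 and 1 at 0 h, at 3 separate places. One of the 24 h peaks, 3251 bp past the gene's 3′ end, lay in the body of Pabpn1l and 0.92 kb from that gene's start.

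Zfpm1, the GATA cofactor FOG1, had 1 peak with hairpin 133 at each time. The 24 h peak, chr8:122290988-122291138, and the 0 h peak, chr8:122291812-122291962, did not overlap and lay 673 bp apart, 8.92 and 9.75 kb past the start. Tal1, the master factor of blood formation, had 1 peak with hairpin 133 at 0 h at chr4:115068242-115068392, 10.5 kb past the nearest start. Ikzf1, the zinc finger protein Ikaros, had 1 with hairpin 14 at 24 h, 63.1 kb past the start. No peak was listed at Klf1, Lmo2, Ldb1, Nfe2, Bcl11a, Myb, Gfi1b, Klf3 or Zbtb7a. Of these, Zbtb7a came nearest to the limit, with a peak 11.6 kb from its body in the list of hairpin 133 at 0 h. Klf1, the factor of adult beta-globin and many red cell genes, had its nearest peaks at 28.9 and 167.7 kb at 24 h and at 588 and 137 kb at 0 h (hairpins 133 and 14).

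**Figure D3:**
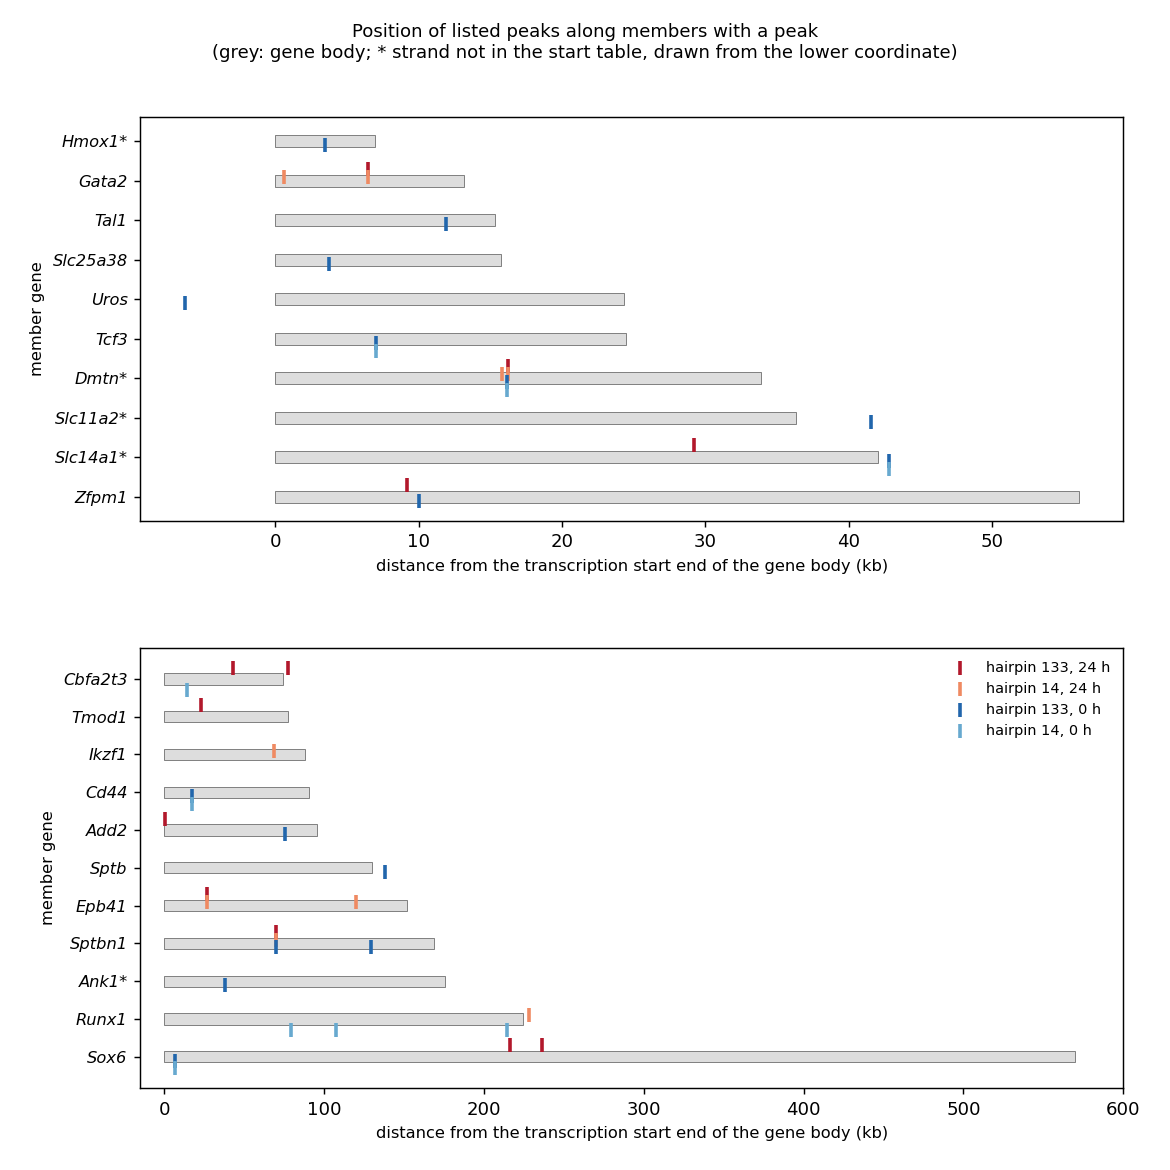
Listed peaks (coloured ticks, 1 row of ticks per list) along the bodies (grey bars, to scale, kb) of the 21 members with a peak, shorter genes above and longer genes below. In Sox6 the 0 h ticks of both hairpins sit near the start and the 24 h ticks of hairpin 133 lie 209.6 kb or more further in, and in Dmtn the ticks of all 4 lists fall together.

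The globin genes had no peak in any list, and the distances around them were long. Hba-x, the embryonic zeta globin, had its nearest peaks at 464 and 1636 kb at 24 h and at 1252 and 503 kb at 0 h (hairpins 133 and 14). Hba-a1, an adult alpha globin with a near-identical copy, lies in the same cluster and shares those peaks, at 472, 1630, 1246 and 497 kb. Hbb-y, the embryonic epsilon-like globin of the beta cluster, had its nearest peaks at 303 and 1573 kb at 24 h and at 1416 and 1374 kb at 0 h. For all protein-coding genes the median distance was 211 and 243 kb at 24 h and 157 and 198 kb at 0 h. How well reads can be placed on duplicated globin genes was not analysed.

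Of the 7 haem genes, 2 had a peak, both with hairpin 133 at 0 h. Hmox1, the haem oxygenase that breaks haem down, had it in the middle of its 6.98 kb body at chr8:75097012-75097162. Uros, uroporphyrinogen III synthase, had it 6209 bp upstream of its body at chr7:133716676-133716826, in the body of Bccip, whose own distance to it is thus 0. The enzymes Urod, Fech, Ppox, Cpox and Alad had no peak within 10 kb. Alad, which joins the first precursors of the ring, was 35.0 kb from a region found in all 4 lists, outside the limit used here.

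Among the iron genes, 2 of 5 had a peak, again both with hairpin 133 at 0 h alone. Slc25a38, a mitochondrial glycine carrier needed for haem synthesis, had it inside the body, 3.77 kb past the start, at chr9:120114075-120114225. Slc11a2, the iron importer DMT1 of endosomes, had it 5126 bp outside the body at chr15:100429335-100429485. The transferrin receptor gene Tfrc, the mitochondrial iron carrier gene Slc25a37 and the iron exporter gene Slc40a1 had none, and their nearest peaks in any list were 75.7, 110.8 and 817 kb away. The 4 haem and iron members with a peak rest on a single library, in whose list 12.7% of all protein-coding genes had one. The other 3 lists held 0 of these 15 globin, haem and iron members, where 9.72% to 11.0% of all protein-coding genes had a peak. Of 20 further globin and haem genes, 2 (hairpin 133) and 1 (hairpin 14) had a peak at 24 h, and 1 with each hairpin at 0 h, and of 19 further iron genes 1 had a peak, with hairpin 14 at 24 h.

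**Figure D4:**
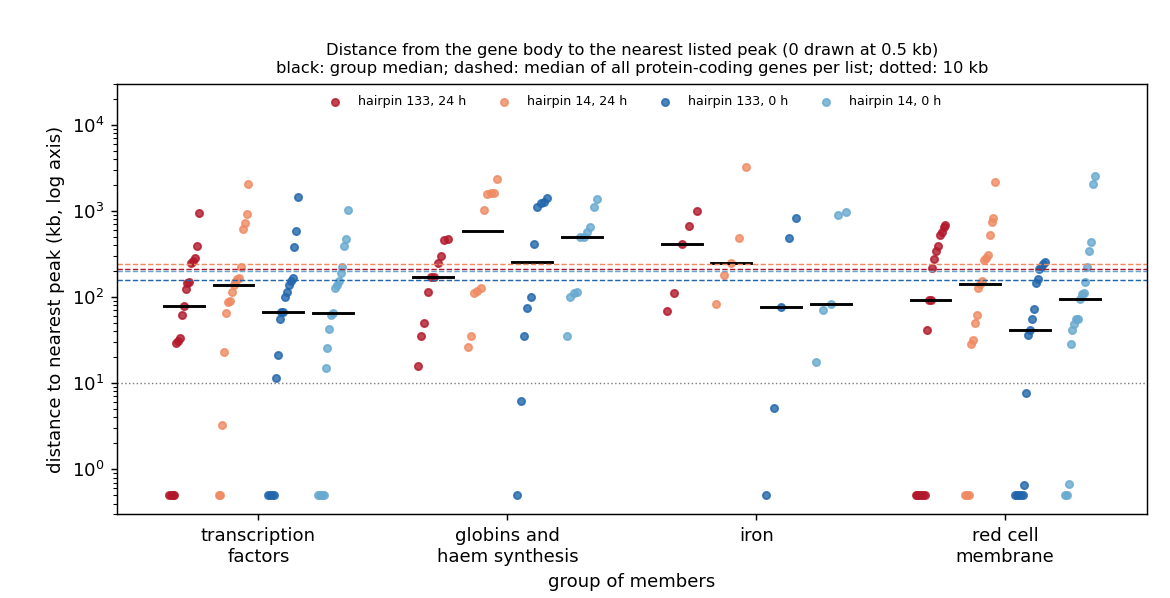
Distance from each member's body to the nearest listed peak (y axis, kb, log axis; 0 drawn at 0.5 kb), by group of members and list, with group medians as black bars and the medians of all protein-coding genes as dashed lines. Globin and haem genes sit highest in the lists of hairpin 14, with medians of 577 kb at 24 h and 500 kb at 0 h.

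The membrane genes held 9 of the 21 members with a peak, or 52.9% of the 17, where 26.0% of all protein-coding genes had one. In the 24 h lists 6 of 17 had a peak with hairpin 133 and 3 with hairpin 14, and in the 0 h lists 7 and 3 had one. The shares of all protein-coding genes were 10.5% and 9.72% at 24 h and 12.7% and 11.0% at 0 h. As with the factors, no excess is read from these counts. Dmtn, the gene of dematin, which bundles actin and ties the skeleton to the membrane, was the only member with a region in all 4 lists, chr14:70618236-70618482 near the middle of its 33.9 kb body. Such a region occurred at 2.04% of members and at 1.28% of all protein-coding genes. Within a time the hairpins gave identical coordinates, chr14:70618332-70618482 at 24 h and chr14:70618236-70618386 at 0 h. Between times the peaks were shifted by 96 bp and overlapped by 55 bp. Hairpin 14 had a further Dmtn peak at 24 h, chr14:70617934-70618084, which ended 151 bp before the common region.

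Sptbn1, the gene of beta-II spectrin, which outside red cells does the work of the erythroid chain, held the region found in 3 lists, chr11:30198309-30198552. It was listed with both hairpins at 24 h, and with hairpin 133 at 0 h. The 24 h peaks were identical and the 0 h peak was shifted by 93 bp, with an overlap of 58 bp. The centre of the region lay 0.17 kb upstream of an annotated inner start of the gene, which the region itself did not cover. It was the only one of the 35 regions that touched a promoter window (250 bases before to 50 after a start) in the RefSeq table. Its sequence is shown because, alone among the member regions, it can be read here in large part (the 0 h peak runs past the window's end), from RefSeq on GRCm38.p6 (the assembly behind mm10), on the minus strand, with CpGs in capitals. The window of that start, chr11:30198208-30198507, holds 21 CpGs:
Sptbn1 inner start: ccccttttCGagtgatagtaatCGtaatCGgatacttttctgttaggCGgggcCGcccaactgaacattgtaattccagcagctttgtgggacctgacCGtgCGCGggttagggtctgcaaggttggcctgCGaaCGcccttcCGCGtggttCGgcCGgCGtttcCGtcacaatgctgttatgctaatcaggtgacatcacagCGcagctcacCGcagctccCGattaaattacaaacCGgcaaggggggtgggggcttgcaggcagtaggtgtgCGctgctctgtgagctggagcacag
The 151 bases listed at 24 h with both hairpins, chr11:30198309-30198459, hold 12 of these CpGs:
Sptbn1 24 h peak: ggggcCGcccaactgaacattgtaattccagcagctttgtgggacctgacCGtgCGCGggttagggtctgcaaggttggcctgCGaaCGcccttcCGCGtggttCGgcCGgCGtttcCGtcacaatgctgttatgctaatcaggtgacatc
The part of the 0 h peak of hairpin 133 that falls in the window, chr11:30198402-30198507, holds 8:
Sptbn1 0 h part: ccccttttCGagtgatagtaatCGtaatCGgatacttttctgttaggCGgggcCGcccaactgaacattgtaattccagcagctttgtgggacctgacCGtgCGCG
The gene's other start in that table, chr11:30219723-30220022 on the same strand, is outer only among the starts given there. The gene body runs on beyond it to position 30268384. The window of this start holds 2 CpGs, and the nearest peak to this start was 21.3 kb away:
Sptbn1 outer start: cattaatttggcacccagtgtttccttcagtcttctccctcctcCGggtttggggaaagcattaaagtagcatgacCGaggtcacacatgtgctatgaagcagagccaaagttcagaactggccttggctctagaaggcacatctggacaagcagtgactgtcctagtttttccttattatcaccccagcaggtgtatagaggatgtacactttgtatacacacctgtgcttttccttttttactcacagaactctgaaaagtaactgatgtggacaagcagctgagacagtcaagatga
A further Sptbn1 peak with hairpin 133 at 0 h, chr11:30139252-30139402, lay 58.9 kb past the inner start. Hairpin 14 had no peak at the gene at 0 h, the nearest being 2513 kb away.

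Epb41, the gene of protein 4.1, which joins spectrin and actin to glycophorin C, had peaks at 24 h only, 1 with hairpin 133 and 2 with hairpin 14, against 0 and 0 at 0 h. The common region, chr4:132048346-132048496, was identical in both lists and lay 0.66 kb past an inner start whose window holds 37 CpGs, the most of any window of a membrane member. The further peak of hairpin 14, chr4:131955444-131955594, lay 93.6 kb past that start. Add2, the beta-adducin gene, had 1 peak with hairpin 133 at 24 h and 1 with hairpin 133 at 0 h, 75.3 kb apart. The 24 h peak, chr6:86028772-86028922, began 42 bp past the end of the start window, which holds 11 CpGs. The windows of both starts are shown as examples, with 24 h peaks within 1 kb of the starts. Starts of Gata2 (32 CpGs in the window) and Sox6 (4 CpGs) also had a 24 h peak within 1 kb and are not shown. No link between CpG number and peaks is read from these windows. Shown beside those of Epb41 and Add2 is the window of Hbb-y, which holds 1 CpG and has no listed peak within 303 kb. The strand is plus for Add2 and minus for Epb41 and Hbb-y, with CpGs in capitals:
Epb41 inner start, chr4:132049029-132049328: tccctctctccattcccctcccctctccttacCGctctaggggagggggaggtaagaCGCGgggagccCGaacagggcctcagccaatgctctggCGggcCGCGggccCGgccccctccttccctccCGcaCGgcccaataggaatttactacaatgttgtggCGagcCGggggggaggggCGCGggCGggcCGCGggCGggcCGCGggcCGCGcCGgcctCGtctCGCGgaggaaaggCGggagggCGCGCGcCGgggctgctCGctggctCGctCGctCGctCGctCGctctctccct
Add2 start, chr6:86028431-86028730: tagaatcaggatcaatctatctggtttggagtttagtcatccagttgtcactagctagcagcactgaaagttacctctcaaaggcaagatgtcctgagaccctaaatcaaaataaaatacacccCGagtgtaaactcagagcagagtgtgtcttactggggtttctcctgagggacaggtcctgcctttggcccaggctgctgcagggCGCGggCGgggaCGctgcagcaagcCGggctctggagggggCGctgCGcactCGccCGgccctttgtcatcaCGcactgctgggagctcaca
Hbb-y start, chr7:103853158-103853457: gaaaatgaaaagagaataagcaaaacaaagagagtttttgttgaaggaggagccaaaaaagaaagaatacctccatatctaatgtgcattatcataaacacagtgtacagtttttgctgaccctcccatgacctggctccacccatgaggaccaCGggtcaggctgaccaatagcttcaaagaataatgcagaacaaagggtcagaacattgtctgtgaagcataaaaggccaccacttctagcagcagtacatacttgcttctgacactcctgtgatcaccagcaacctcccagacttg

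Cd44, a hyaluronan receptor whose surface level falls as erythroblasts mature, had 1 peak with each hairpin at 0 h and 0 at 24 h. The peaks started 3 bp apart and formed chr2:102884530-102884683, 17.1 kb past the start. Slc14a1, the urea transporter that carries the Kidd blood group in humans, had 1 peak with hairpin 133 and 0 with hairpin 14 at 24 h, against 1 with each hairpin at 0 h. The 0 h peaks, 10 bp apart in start, lay 664 bp outside the gene body, and the 24 h peak lay inside it, 13.4 kb away. Both places also fall in the noncoding gene Gm36338.

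Peaks of 1 list alone were found at 3 more membrane genes. Sptb, the erythroid beta spectrin gene, had 1 with hairpin 133 at 0 h, 7782 bp past its 3′ end and inside the body of Plekhg3. It was the member whose only peak lay nearest to the 10 kb limit on the inside. Ank1, the ankyrin gene that links spectrin to band 3, had 1 with hairpin 133 at 0 h at chr8:23012556-23012706. Tmod1, tropomodulin 1, which caps actin filaments, had 1 with hairpin 133 at 24 h, 22.7 kb past its start. Slc4a1 (band 3), Epb42 (protein 4.2), Rhag and Rhd of the Rh complex, Kel (the Kell antigen), Aqp1 (a water channel), Ermap and Add1 (alpha-adducin) had no peak in any list.

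Regions common to both hairpins were found at 4 members at 24 h (8.16%), Dmtn, Epb41, Gata2 and Sptbn1, and at 5 at 0 h (10.2%), Cd44, Dmtn, Slc14a1, Sox6 and Tcf3. Among all protein-coding genes the shares were 3.38% at 24 h and 4.61% at 0 h. Members and further genes together, 132 genes, had shares of 3.03% at 24 h and 4.55% at 0 h. As the members were named with these data in view, no excess is read from their shares. Dmtn was the gene on both lists of members. At 24 h all 4 common regions had identical start and end with both hairpins, while at 0 h 2 did (Dmtn and Sox6) and 3 were offset by 3 to 10 bp (Cd44, Tcf3 and Slc14a1). The share with identical ends was not counted over all regions of both hairpins. Whether this difference between times is particular to members is thus unknown, and it was not tested. Regions common to both times were found at 2 members with hairpin 133 (4.08%), Dmtn and Sptbn1, and at 1 with hairpin 14 (2.04%), Dmtn, against 2.47% and 2.32% of all protein-coding genes. With hairpin 133 the 2 genes are 1 more than with hairpin 14, a difference that 1 library per group cannot test.

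**Figure D5:**
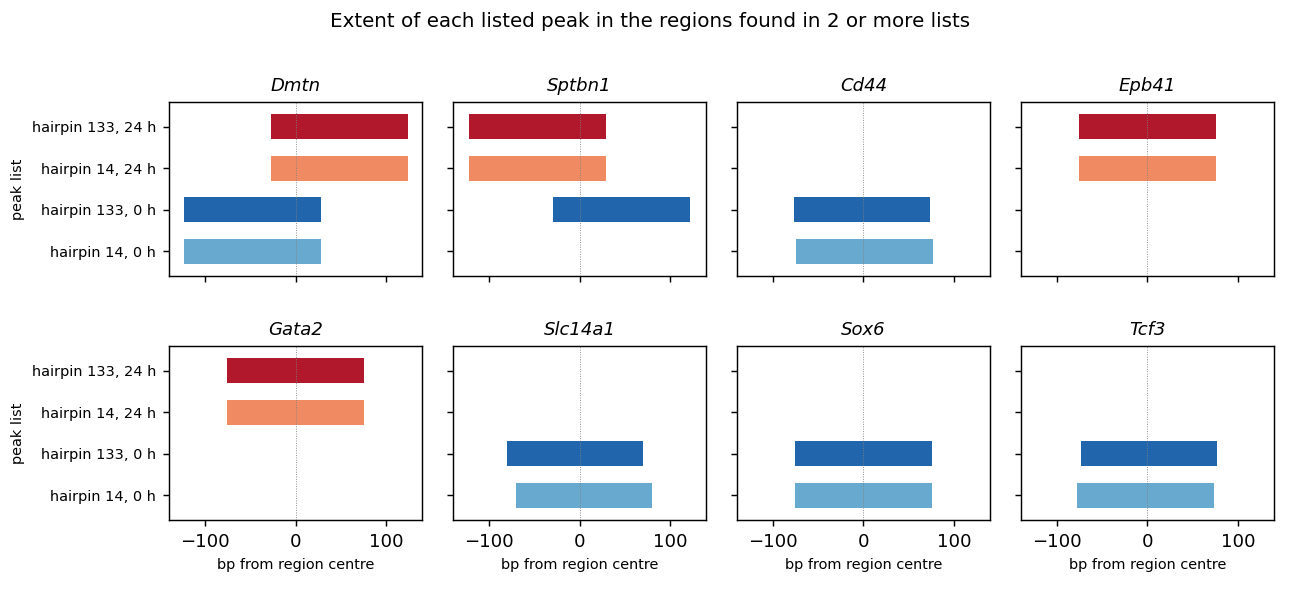
Extent of each listed peak in the 8 member regions found in 2 or more lists, in bp from the region's centre, with 24 h lists above 0 h lists. In Dmtn and Sptbn1 the 24 h and 0 h peaks are shifted by 96 and 93 bp and overlap by 55 and 58 bp, and in the other 6 genes all peaks come from 1 time.

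The member regions within 1 kb of an own start were 5, all of them listed at 24 h and 1 of them, at Sptbn1, also at 0 h. Of the 14 regions listed at 24 h at members whose starts are in the RefSeq table, 5 had their centre within 1 kb of such a start (35.7%): those of Add2, Epb41, Gata2, Sox6 and Sptbn1. Of the 15 listed at 0 h, 1 did (6.67%), the Sptbn1 region that the 24 h lists also hold. Over all protein-coding genes the shares were 20% at 24 h and 14.2% at 0 h. The difference between times at members thus has the direction seen over all genes, rests on 5 regions, and was not tested. In gene bodies lay 15 of 17 member regions listed at 24 h (88.2%) and 16 of 20 listed at 0 h (80.0%), against 69.4% and 70.0% of regions counted over all protein-coding genes. Members with a peak had a median body of 74.2 kb, and all protein-coding genes, with or without a peak, one of 17.2 kb. The part of body length in these shares was not tested, and the members were named with these data in view.

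CpG number in the start windows was known for 38 of the 49 members. Taking the window richest in CpG for each gene, the members had a median of 20.5 CpGs (range 1 to 53) and all 17492 protein-coding genes with a window had 15 (0 to 67). Transcription factors had a median of 31 (15 genes), iron genes 23.5 (2 genes), globin and haem genes 14.5 (8 genes) and membrane genes 8 (13 genes). The 16 members with a peak had a median of 25 and the 22 with none had 11. The 16 had 30 windows to choose the richest from and the 22 had 26. The members with a peak also had the longer median body. The part of window number and of length in this difference was not tested. The 4 members with the most CpGs in a window had no peak close to it. These were Cbfa2t3 (53 CpGs, nearest peak in any list 6.99 kb away), Ikzf1 (52 CpGs, 67.35 kb), Ldb1 (41 CpGs, 92.1 kb) and Myb (40 CpGs, 25.45 kb). This does not hold for the windows next in rank, of Epb41 and Zfpm1 (37 CpGs each). Their nearest peaks were 0.66 and 8.92 kb away.

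In at least 1 list, a peak was found for 26.0% of all protein-coding genes and for 18 of the 83 further genes (21.7%). Among factors these were E2f2, E2f4, Foxo3, Etv6, Stat5b and Spi1 (6 of 21), and Etv6, a repressor of the ETS family, held 1 peak with hairpin 133 and 3 with hairpin 14 at 24 h against 0 and 0 at 0 h. E2f2, a cell cycle factor of late erythroblasts, had 1 peak with hairpin 14 at 0 h that covered an inner start, and 1 with hairpin 14 at 24 h just past its 3′ end. Among globin and haem genes they were Blvra, Eif2ak1 and Fam210b (3 of 20). Eif2ak1, the haem-sensing kinase that slows globin translation, was the only one of the 83 with a region of both hairpins, at 0 h. Such a region at 0 h occurred at 1.20% of the 83 genes and at 4.61% of all protein-coding genes. The single iron gene was Glrx5 (1 of 19), and the membrane genes were Slc2a1, Slc29a1, Art4, Bcam, Slc43a1, Piezo1, Kcnn4 and Atp2b4 (8 of 23). None had a region common to both times.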

How the data were processed

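Methyl-CpG immunoprecipitation was read in 4 libraries, 1 per hairpin and time. The authors deposited 1 peak list per library as chromosome, start and end in base pairs, with no score, count or signal, so read depth is unknown. Per the submitters' processing notes, BWA, Picard, SAMtools and HOMER were used on mm10. Roles, versions, threshold and the control for peak calling are not given in the sources used here. Every peak was 151 bp wide except 1 of 120 bp.

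Starts were turned to 1-based. Genes came from the RefSeq table of GRCm38.p6 (21887 protein-coding), and start windows and strands from the RefSeq promoter table, which holds 38 members. Peaks were tied to a gene by an overlap of at least 1 bp with its body plus 10 kb, and overlapping peaks were merged into regions. Shares carry exact binomial 95% intervals where given. Counting was checked on simulated peaks. Python 3.11.15, pandas 2.3.3 and scipy 1.17.1 were used. No statistical test was run, since each group is 1 library. The members and lists were chosen with earlier results of these data known. All members may be named, and of the 83 further genes those with a peak. Other windows, ways to tie peaks to genes and overlaps were tried.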

Additional observations from a re-analysis of the deposited data

Results flagged for a closer look

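The time difference in number of peaks (24 h minus 0 h) had opposite signs with the 2 hairpins at 3 members, a difference that was not tested and rests on 1 library per group. At Cbfa2t3 it was 2 with hairpin 133 and -1 with hairpin 14. At Sox6 it was 1 with hairpin 133 and -1 with hairpin 14. At Sptbn1 it was -1 with hairpin 133 and 1 with hairpin 14. With counts this small, 1 peak more or less in 1 list ends each of these patterns.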

How the results depend on the processing

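Of 88 recounts under other settings, 65 stayed within 1.5 times the reported count and 23 did not. The gene body alone, a 5 kb flank, the peak centre and the nearest protein-coding gene alone moved no count that far. A 50 kb flank gave 17 (hairpin 133) and 11 (hairpin 14) members with a peak at 24 h and 15 with hairpin 14 at 0 h, 4 and 3 members with a region of both times (hairpins 133 and 14) and 2 with a region in all 4 lists, Alad besides Dmtn. The protein-coding genes with a peak were then 4704 and 4299 at 24 h and 5707 and 4965 at 0 h. Without peaks identical in both lists of a time, 6 members kept a peak with hairpin 133 at 24 h, 0 had a region of both hairpins at 24 h and 3 at 0 h, and 0 had a region of both times with either hairpin or of all 4 lists. By its construction that setting removes regions shared within a time. When sharing needed at least 50% of each peak, 0 members had a region of both times with either hairpin and 0 one in all 4 lists, since the overlaps between times at Dmtn and Sptbn1 were 55 and 58 bp. When it needed identical start and end, those counts were again 0, and 2 members had a region of both hairpins at 0 h. A stricter subset by peak score was not run because the lists hold no score. No paired analysis was possible because each group is 1 library.

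Depth is unknown, so an absent peak is no measure of unmethylated DNA. A globin or haem peak share of 0 allows up to 0.125% of the list of hairpin 133 at 24 h, and up to 0.138% and 0.107% of those of hairpin 14 at 24 h and 0 h (upper exact binomial 95% bounds).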
